A study of Drosophila melanogaster with 30 samples.

Results

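Nuclear genes of oxidative phosphorylation were followed across 10 groups of fly photoreceptor nuclei. Members were all gene rows whose FlyBase symbol starts with ND-, Sdh, UQCR-, COX or ATPsyn, with ATPsynbeta left out by that rule, so the beta subunit of the ATP synthase is not described here. The rule found 87 of the 17807 gene rows. Of these, 62 are named as subunits of a respiratory complex, 24 carry a like-named symbol with an L suffix and are paralogs of a subunit, and 1 is an assembly factor, Sdhaf3. The rule uses symbols and no measured value, but it was set with earlier results of these data known.

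Oxidative phosphorylation passes electrons from NADH through complex I, and from succinate through complex II, to ubiquinone, complex III, cytochrome c and complex IV, which reduces oxygen. Complexes I, III and IV pump protons across the inner mitochondrial membrane, and complex V, the ATP synthase, uses their return to make ATP. Most subunits are encoded in the nucleus and a small set in the mitochondrial genome, so both genomes supply each complex other than complex II. Photoreceptors of the fly eye have a high demand for ATP in the light, and many duplicated respiratory genes of Drosophila are known to be expressed mainly in testis.

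RNA was sequenced from nuclei of outer photoreceptors of male Drosophila melanogaster at day 30, kept at 25 C in a cycle of 12 h light and 12 h dark. Per the labels all 10 groups carried Rh1-GFPKASH and Rh1-Gal4, so that the driver of Rh1, the opsin of outer photoreceptors, set both the tag used to enrich the nuclei and the short hairpin RNA (shRNA). The shRNA was directed against Spt5 (which pairs with Spt4 in the elongation factor DSIF), dom (an ATPase of chromatin remodelling complexes), Trl (the GAGA factor), Top1 (topoisomerase), cnc (the fly Nrf2 factor), TH1 (a subunit of the elongation factor NELF), Cdk12 (a kinase of RNA polymerase II), Taf1 (a subunit of TFIID) or Spt6 (an elongation factor and histone chaperone), and, in the control group, against LexA, a gene of bacteria with no counterpart in flies. Each group had 3 libraries, described as biological replicates. The shRNA and the tag are expected only in cells that use Rh1, and RNA was taken from enriched nuclei, so the counts do not describe the mRNA or protein pool of the cell; mitochondrially encoded transcripts were counted in these libraries too.

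Depth lay between 4064250 and 18024440 gene counts per library. None of the 9 targeted genes was called lower in its own group, with log2 fold changes between -0.41 and 0.67 and a smallest adjusted p of 0.13 (edgeR's quasi-likelihood test, Benjamini-Hochberg adjustment); 1 of the 9, Trl, had an unadjusted p under 0.05, and it was the one at 0.67. The groups are therefore taken from the labels alone. Outer photoreceptor markers were present in every group, and their summed level was 22878 to 59599 CPM, counts scaled to a common library size, in Spt5, 50566 to 64563 in dom, 38710 to 62839 in Trl and 74704 to 80695 in LexA. Reads outside annotated features ran from 55.4 to 171.7 per 100 gene counts, and 3 libraries (Trl replicates 1 and 2 and dom replicate 1) stood above 120. Multiply aligned reads were 59.2 to 94.5 per 100 gene counts in Spt5 and 72.9 to 82.6 in Cdk12, against 17.7 to 21.7 in LexA, and at most 33.0 in any library of the other groups; their part in the Spt5 values was not tested.

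The genes themselves were short. Subunit genes spanned a median of 1148 bp, against 2330 bp over the 12575 protein-coding genes tested, and 52 of 62 were shorter than that median. Exons of 32 of the 62 overlapped those of another gene. ND-MNLL shares all of its exon sequence with CG45089 and was counted at 0 in all 30 libraries, UQCR-14 lies wholly within the exons of CG32576 on the other strand, and COX5BL within those of Trmt6 on the other strand. The strand setting of the counting was not given in the sources used here, so reads of such pairs cannot be told apart.

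Subunits were expressed far above the typical gene in LexA nuclei. Per kb of exon, their median level was 17.4 CPM, against 4.05 CPM per kb over the tested protein-coding genes, and 58 of 62 stood above that value. By complex, the median was 13.5 CPM per kb for complex I (34 genes), 24.2 for II (4 genes), 19.9 for III (6 genes), 30.8 for IV (8 genes) and 25.0 for V (10 genes). The highest subunit of each complex in LexA was ND-51, the flavoprotein that binds NADH, at 57.1 CPM per kb; SdhA, the flavoprotein of succinate dehydrogenase, at 35.0; UQCR-C1, a core protein of complex III, at 61.5; COX6B, which sits at the dimer interface of complex IV, at 58.9; and ATPsynC, of the proton-turned c ring, at 101.9.

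Library by library, ATPsynC had 312.9, 317.7 and 208.0 CPM in Spt5, 121.9, 215.1 and 200.1 in dom, 91.7, 133.0 and 175.6 in Trl, and 168.4, 207.1 and 195.7 in LexA. All 3 Spt5 libraries lay above the highest LexA library, replicate 3 only just, while Trl and LexA overlapped in range. SdhA had 195.1, 167.4 and 83.6 CPM in Spt5, 83.2, 159.9 and 146.8 in dom, 50.9, 67.9 and 112.0 in Trl, and 101.5, 98.0 and 89.0 in LexA. UQCR-C1 had 176.5, 164.0 and 89.2 CPM in Spt5, 78.5, 142.5 and 137.4 in dom, 44.8, 62.1 and 98.2 in Trl, and 93.7, 117.4 and 89.8 in LexA. In both genes Spt5 replicate 3 and dom replicate 1 fell below the lowest LexA library while the other libraries of their groups stood above the highest one. ND-51 had 86.7, 72.2 and 65.6 CPM in Spt5, 58.2, 109.1 and 109.5 in dom, 33.6, 41.4 and 77.4 in Trl, and 79.6, 104.3 and 88.6 in LexA, with all 3 Trl libraries below the LexA range.

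The paralogs with an L suffix were rare transcripts. Their median was 1.29 CPM per kb in LexA, 4 of 24 stood above the median of protein-coding genes, 9 had a single exon and 10 lay inside the span of another gene. Of the 23 paralogs paired with a named parent subunit, 22 were below the parent in LexA, for example COX6AL2 at 0.204 against levy, the COX6A gene, at 48.6 CPM per kb. UQCR-11L was the exception, at 33.6 CPM per kb in LexA against 18.7 for UQCR-11, and it exceeded its parent in 7 of the 10 groups. ND-51L1 was the next highest of the paralogs, at 11.3 CPM per kb against 57.1 for ND-51.

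**Figure D1:**
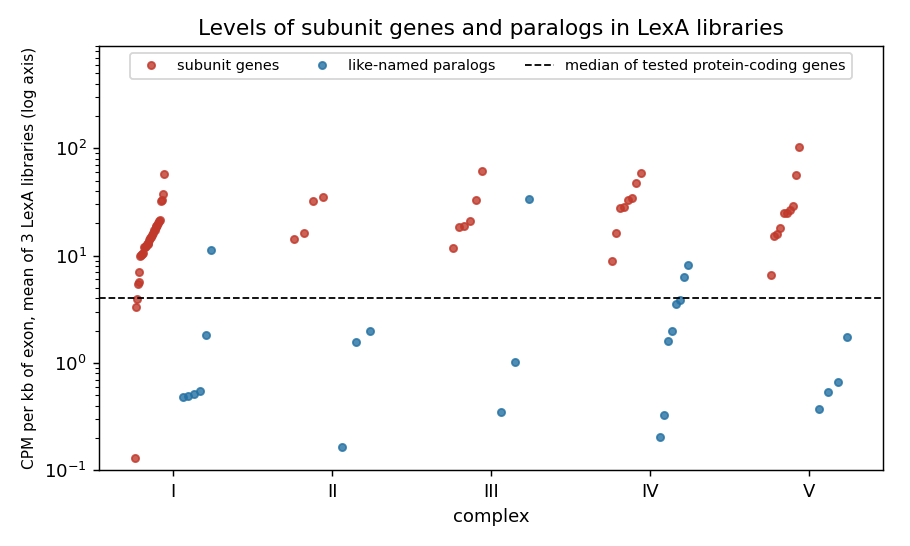
Mean level per kb of exon in the LexA libraries for each member (CPM per kb, log axis), grouped by complex, with subunits and L paralogs marked apart and the median of tested protein-coding genes as a dashed line; ND-MNLL, at 0, is not drawn. Of the subunits, 58 of 62 lie above the median of protein-coding genes (4.05 CPM per kb), up to ATPsynC at 101.9; 4 of 24 paralogs do, with UQCR-11L the highest at 33.6.

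Across the 9 comparisons with LexA, called members were few. In each comparison 81 members passed the filter on low counts, made up of 60 subunits, 20 paralogs and Sdhaf3; ND-B8, ND-MNLL and the paralogs ATPsynGL, COX7AL, ND-20L and ND-24L did not, with at most 21 counts in any group. Calls were made below an adjusted p of 0.05, over the 14888 genes tested.

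In Spt5, most subunits stood above LexA and 1 was called. Of 60 subunits, 53 had a log2 fold change above 0, with a median of 0.41, against 0.05 for all genes tested. The subunit medians by complex were 0.37 for I, 0.38 for II, 0.58 for III, 0.25 for IV and 0.55 for V, and in complex V all 10 were above 0. The single call, 1 of 81 members higher, compares with 11.0% of all genes called higher, and no member was called lower, against 5.42% of all genes.

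The called gene was ATPsyndelta, a subunit of the central stalk of the F1 part of ATP synthase (FBgn0028342, BDGP6 X:10212970-10217393, plus strand). It had 35.7, 39.9 and 31.5 CPM in Spt5, against 24.0, 26.9 and 24.3 CPM in LexA, and the groups did not overlap. The log2 fold change was 0.51 (SE 0.17, adjusted p = 0.043, edgeR). The call was lost on leaving out either Spt5 replicate 1 or 2 or any LexA library, with adjusted p up to 0.24, with no filter on low counts (0.091) and with only the Spt5 and LexA libraries in the fit (0.14), and 1358 of its 3817 exon bases overlap CG2962 on the other strand.

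The largest differences among well expressed members in Spt5 were not called. ATPsynE, subunit e of the membrane part of ATP synthase, had 23.5, 29.2 and 13.1 CPM in Spt5, against 9.57, 10.8 and 12.8 CPM in LexA (log2 difference 0.99, SE 0.39, adjusted p = 0.082, edgeR). ATPsynB, of the peripheral stalk, had 44.2, 49.5 and 24.1 CPM in Spt5, against 23.1, 22.5 and 22.9 CPM in LexA (0.78, SE 0.32, adjusted p = 0.10). UQCR-C2, the second core protein of complex III, had 124.5, 96.5 and 58.0 CPM in Spt5, against 47.8, 48.2 and 69.8 CPM in LexA (0.75, SE 0.31, adjusted p = 0.10). In ATPsynE and ATPsynB every Spt5 library exceeded every LexA library, and in all 3 genes Spt5 replicate 3 was the lowest of its group.

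UQCR-11, a small subunit of complex III, stood against that direction, with 11.9, 13.0 and 29.5 CPM in Spt5, against 23.1, 33.0 and 34.5 CPM in LexA (log2 difference -0.74, SE 0.30, adjusted p = 0.090, edgeR). Its paralog UQCR-11L had 7.25, 8.82 and 12.7 CPM in Spt5, against 13.0, 10.1 and 21.5 CPM in LexA, and ND-51L1 had 19.8, 12.2 and 21.1 CPM in Spt5, against 19.0, 24.3 and 29.2 CPM in LexA. Both paralogs overlapped between the groups, with log2 fold changes of -0.64 and -0.45 and adjusted p of 0.43 and 0.32.

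The number of members called in Spt5 depended on which of its libraries were in the fit. The subunit median of Spt5 replicate 3, relative to the mean of the LexA libraries, was 0.05, against 0.53 and 0.58 in replicates 1 and 2. Replicate 3 had 106.2 reads outside features per 100 gene counts, against 55.4 and 65.6 in replicates 1 and 2. Without it 18 members were called in Spt5, 14 subunits higher and UQCR-11 lower, with 1 paralog higher and 2 lower, against 24.2% of all genes called in that fit, and the subunit median was 0.59. Without Spt5 replicate 1 or 2 no member was called, against 1.58% and 3.83% of all genes in those fits, and the median was 0.37 or 0.31. At all 3 libraries, the 95% interval of 30 of the 60 subunits lay wholly within 1 log2 unit of 0, so that a 1 log2 unit change was outside the interval for those 30 and not for the rest.

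Markers of other cells also differed between Spt5 and LexA. All 6 markers of other neurons, 4 of 6 of glia, 4 of 4 of inner photoreceptors and 3 of 5 of fat body were called higher, and 6 of 8 of outer photoreceptors lower. Over all genes 11.0% were called higher and 5.42% lower. Summed levels of the other neuron markers were 293.6 to 1047 CPM in Spt5 and 220.1 to 311.8 CPM in LexA, those of glia 369.9 to 870 CPM in Spt5 and 290.9 to 529.2 CPM in LexA. Those of inner photoreceptors were 365 to 1015 CPM in Spt5 and 282.3 to 325.5 CPM in LexA, and those of fat body 2628 to 7816 CPM in Spt5 and 2114 to 2924 CPM in LexA. Those of muscle were 688.3 to 1402 CPM in Spt5 and 652.4 to 1071 CPM in LexA. Those of testis were 65.5 to 73.5 CPM in Spt5 and 59.6 to 68.0 CPM in LexA. The other neuron sums lay wholly above LexA in dom (315.1 to 522.5 CPM), Top1, cnc, TH1 and Spt6. In Spt5, Trl, Cdk12 and Taf1 they overlapped LexA. None of these markers was at 0 in Spt5 or LexA. Of the Spt5 libraries, replicate 3 had the highest outer photoreceptor sum, 59599 CPM, against 22878 and 23048 CPM. It also had the lowest sums of other neurons, glia, inner photoreceptors and fat body (293.6, 369.9, 365 and 2628 CPM). The part of such nuclei in the subunit values was not tested, and in bulk nuclei more cells of a type and more RNA per cell cannot be told apart.

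In dom no member was called, against 10.4% of all genes. The subunit median was 0.07, with 36 subunits above 0 and 24 below, and 2 had an unadjusted p under 0.05, 1 in each direction. DESeq2 called 1 member, against 14.2% of all genes. The median of all genes was 0.21. For 52 of 60 subunits the 95% interval lay within 1 log2 unit of 0. UQCR-C2 had 58.7, 104.9 and 105.3 CPM in dom, against 47.8, 48.2 and 69.8 CPM in LexA (log2 difference 0.70, SE 0.31, adjusted p = 0.17, edgeR). COX7C had 13.1, 25.1 and 20.6 CPM in dom, against 12.3, 14.4 and 14.8 CPM in LexA. In both genes dom replicate 1 lay within the LexA range and the other dom libraries above it.

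Lower values in dom were found for a paralog of complex III. UQCR-11L had 6.79, 7.74 and 5.11 CPM in dom, against 13.0, 10.1 and 21.5 CPM in LexA, and the groups did not overlap (log2 fold change -1.18, SE 0.46, adjusted p = 0.11, edgeR). All 3 Spt6 libraries also lay below LexA for this gene, at 9.83, 4.49 and 7.93 CPM. Its LexA mean, 14.9 CPM, was above that of each knockdown other than cnc (16.5 CPM). ND-51L1 had 14.0, 20.3 and 17.8 CPM in dom, against 19.0, 24.3 and 29.2 CPM in LexA, and ND-B14.5A, an accessory subunit of complex I, had 18.4, 24.5 and 24.5 CPM in dom, against 32.5, 23.7 and 34.7 CPM in LexA. Both overlapped LexA, with log2 fold changes of -0.47 and -0.43. SdhA, described above, was at 0.44 (adjusted p = 0.38). dom replicate 1, with 121.7 reads outside features per 100 gene counts, had a subunit median of -0.33, against 0.26 and 0.29 in replicates 2 and 3 with 64.7 and 71.7 reads.

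In Trl the subunits stood mostly below LexA, and 2 were called. Of 60 subunits, 53 had a log2 fold change below 0, with a median of -0.36 against 0.21 for all genes, and all 8 subunits of complex IV and all 10 of complex V were among them. The calls were 2 of 81 members lower, against 1.91% of all genes, and 0 higher, against 0.631%, or 2 of 81 in either direction, against 2.55%. Scaling by DESeq2 size factors moved the median of all genes to 0.39 and that of the subunits to -0.20, and it changed the calls over all genes to 120 higher and 98 lower, against 94 higher and 285 lower with the scaling used throughout. Paralogs had a median of 1.34, and none of the 20 was called. Some of them passed the low-count filter mainly through Trl and other libraries with many reads outside features, so that median is partly set by the filter.

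ND-B14.5A, the orthologue of human NDUFA7 (FBgn0025839, BDGP6 X:2172526-2173432, plus strand), had 12.8, 12.9 and 18.4 CPM in Trl, against 32.5, 23.7 and 34.7 CPM in LexA. The groups did not overlap, and the log2 fold change was -1.04 (SE 0.21, adjusted p = 0.011, edgeR). COX6B (FBgn0031066, BDGP6 X:19740537-19744335, minus strand) had 20.9, 29.7 and 29.3 CPM in Trl, against 44.8, 53.7 and 41.0 CPM in LexA, again with no overlap (log2 fold change -0.80, SE 0.21, adjusted p = 0.043). Neither was called without Trl replicate 1 (adjusted p 0.088 and 0.17) or without Trl replicate 2 (0.13 and 0.18), with reads outside features as a covariate (0.085 and 0.34) or with the libraries above 120 such reads left out (0.999 for each). COX6B was also not called without any 1 of the LexA libraries, with DESeq2 size factors (0.075), with no filter on low counts (0.080) or with only the Trl and LexA libraries in the fit (0.061). ATPsynE had the lowest fold change of the genes named in Trl, with 0.815, 7.11 and 4.96 CPM in Trl, against 9.57, 10.8 and 12.8 CPM in LexA, and missed the threshold (log2 fold change -1.38, SE 0.42, adjusted p = 0.064).

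The choice of reference moved the count in Trl. Against the mean of the other 8 knockdowns in place of LexA, 35 of 60 subunits were called lower, 16 of complex I, 1 of II, 3 of III, 7 of IV and 8 of V, and 4 paralogs were called higher; over all genes 13.5% were called lower and 17.8% higher in that contrast. The subunit median was -0.59. ND-30, a core subunit of complex I, had 4.08, 8.40 and 11.7 CPM in Trl, against 13.4, 12.4 and 12.6 CPM in LexA and 8.81 to 24.4 CPM in the other 8 knockdowns, and was at -1.02 (SE 0.23, adjusted p = 0.0074, edgeR) in that contrast.

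In reads outside features all 3 Trl libraries stood above every LexA library, so the shRNA and this ratio cannot be told apart in this comparison. Within Trl the subunit medians did not follow the order of reads outside features. Trl replicates 1, 2 and 3 had 134.5, 171.7 and 101.3 such reads per 100 gene counts, against 84.3, 79.3 and 92.4 in LexA, and their subunit medians were -0.82, -0.28 and -0.0018. With the log2 of that ratio as a covariate the subunit median in Trl was 0.02, and with the libraries above 120 left out, which leaves Trl replicate 3 alone with its spread taken from the other groups, it was 0.01. No marker of the 7 cell types listed was called in Trl, but the summed outer photoreceptor level given above lay wholly below LexA. Summed testis markers were 71.2 to 80.5 CPM in Trl and 59.6 to 68.0 CPM in LexA, with no overlap. That sum rests largely on fzo, with medians of 46.5 to 52.8 CPM over sets of 10 libraries. The other testis markers were low, with medians of at most 6.86 CPM. Those of inner photoreceptors were 146.2 to 293.5 CPM in Trl and 282.3 to 325.5 CPM in LexA, and those of fat body 1588 to 2606 CPM in Trl and 2114 to 2924 CPM in LexA. No listed marker was at 0 in either group, and their part in the Trl values was not tested.

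**Figure D2:**
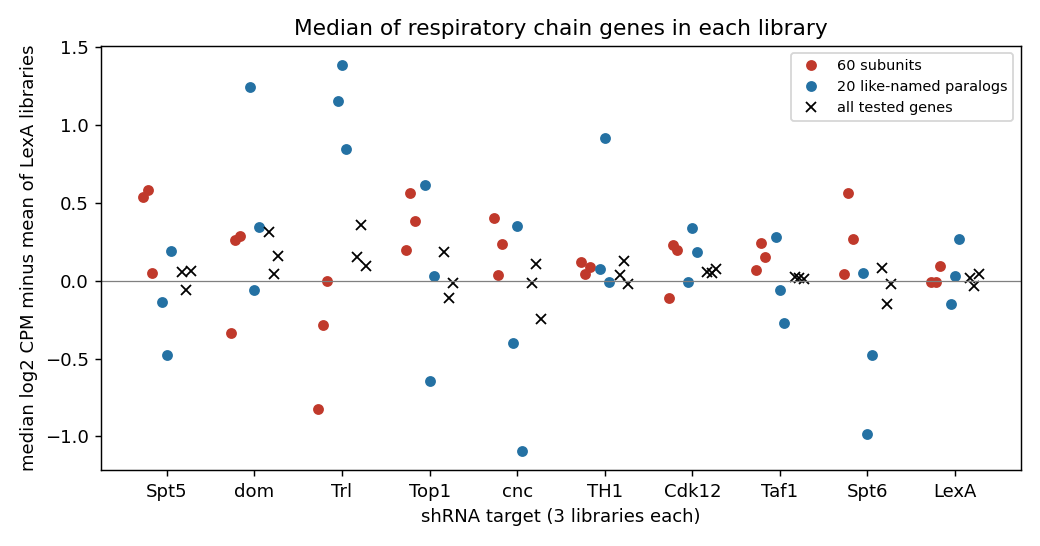
Median log2 CPM of the 60 subunits and of the 20 L paralogs that passed the filter, in each of the 30 libraries, relative to the mean of the LexA libraries; groups run along the axis with LexA last, each point is 1 library, and crosses give the median of all tested genes. Spt5 replicates 1 and 2 have subunit medians of 0.53 and 0.58 and replicate 3 of 0.05, and Trl replicate 1 is the lowest at -0.82.

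In the other 6 knockdowns no member was called, against 0.430% of all genes in Top1, 0.289% in cnc, 0.202% in TH1, 0.195% in Cdk12, 0.148% in Taf1 and 0.107% in Spt6 (edgeR). Subunit medians were 0.36 in Top1, 0.25 in cnc, 0.09 in TH1, 0.10 in Cdk12, 0.17 in Taf1 and 0.28 in Spt6. Of 60 subunits, 55 stood above 0 in each of Top1 and Spt6, 51 in cnc, 48 in Taf1 and 39 in each of TH1 and Cdk12. All 10 of complex V were above 0 in Top1 and Spt6, as in Spt5. At an unadjusted p under 0.05, 10 subunits were higher in Top1, 2 in cnc, 3 in Taf1 and 5 in Spt6, 1 was lower in Cdk12, and none passed in TH1. The 95% interval lay within 1 log2 unit of 0 for 54 of 60 subunits in TH1 and 53 in Cdk12, but for 35 in Top1 and 39 in Spt6. DESeq2 called 1 member in Top1, against 1.10% of all genes. This was ND-13B, a complex I accessory subunit, with 5.59, 9.37 and 6.55 CPM in Top1, against 1.81, 1.24 and 2.96 CPM in LexA (log2 difference 1.84, adjusted p = 0.11 in edgeR). It is named because of that call and not by the rule for named genes.

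**Figure D3:**
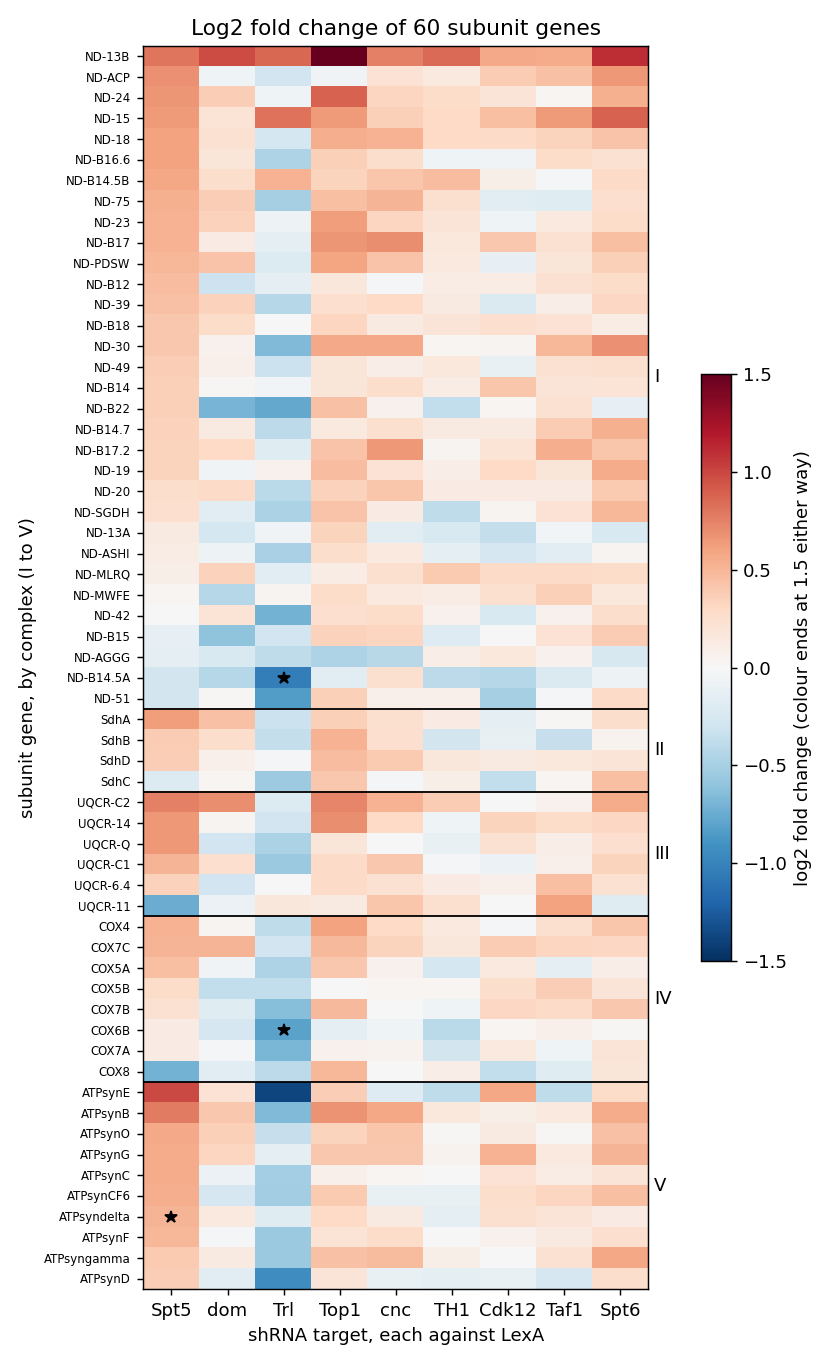
Log2 fold change against LexA of each subunit that passed the filter (rows, ordered by complex) in the 9 knockdowns (columns), on a colour scale centred on 0, with a star where the gene was called. Spt5, Top1, cnc, Taf1 and Spt6 are mostly above 0 (53, 55, 51, 48 and 55 of 60 subunits) and Trl mostly below (53 of 60). In dom, TH1 and Cdk12, 36, 39 and 39 are above 0. Only ATPsyndelta in Spt5 and ND-B14.5A and COX6B in Trl were called.

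Spt5 and dom, the targets named in the series title, were also compared directly. Of 81 members 2 were called higher in Spt5, against 3.43% of all genes, and 1 lower, against 4.76%. The subunit median of the difference was 0.31, and that of the paralogs was -0.45.

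COX7AL2, a paralog of the complex IV subunit COX7A (FBgn0085201, BDGP6 2L:2192525-2197912, minus strand), had 1.06, 1.18 and 1.42 CPM in Spt5, against 4.77, 5.90 and 5.52 CPM in dom, with no overlap. The log2 difference was -2.14 (SE 0.55, adjusted p = 0.013, edgeR). LexA libraries held 1.63, 1.24 and 2.76 CPM, below all 3 dom libraries, and dom against LexA was at 1.52 (adjusted p = 0.077). The parent COX7A was not called in either group.

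UQCR-Q, a small accessory subunit of complex III (FBgn0036728, BDGP6 3L:17474761-17476124, plus strand), had 28.9, 38.0 and 18.8 CPM in Spt5, against 12.2, 17.2 and 15.2 CPM in dom (log2 difference 0.94, SE 0.25, adjusted p = 0.017, edgeR). ND-B12, the orthologue of human NDUFB3 (FBgn0034645, BDGP6 2R:21658078-21658777, plus strand), had 19.3, 17.0 and 14.2 CPM in Spt5, against 10.4, 9.57 and 9.55 CPM in dom (0.78, SE 0.23, adjusted p = 0.032). Spt5 and dom did not overlap in either gene. COX7AL2 was not called without Spt5 replicate 1 or 2, UQCR-Q without any of Spt5 replicates 1 and 2 and dom replicates 1 and 3, and ND-B12 without any of Spt5 replicates 1 and 2 and the 3 dom libraries. With only the Spt5 and dom libraries in the fit UQCR-Q and ND-B12 were not called (adjusted p 0.18 and 0.20), nor was UQCR-Q with the libraries above 120 reads outside features left out (0.055).

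Spt5 was set against Cdk12 because the files of both lack rows for transgenes that the other files hold. None of 81 members was called, against 6.74% of all genes, and the subunit median was 0.29. An unadjusted p under 0.05 was found for 12 subunits, 11 of them higher. DESeq2 called 3 members, against 10.2% of all genes. Without Spt5 replicate 3, 13 members were called, against 19.3% of all genes in that fit.

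**Figure D4:**
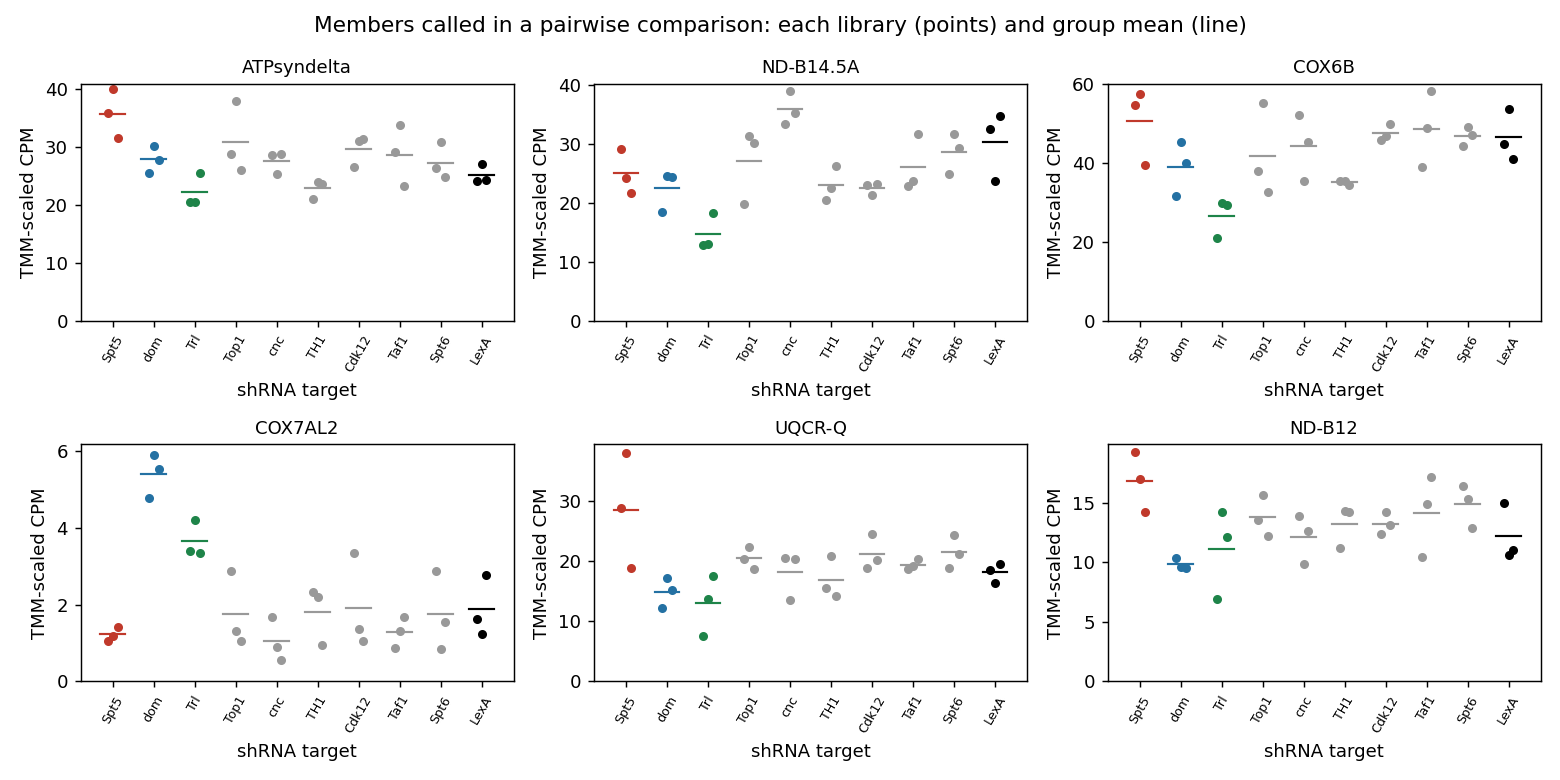
CPM in each of the 30 libraries for the 6 members called in a comparison with LexA or in Spt5 against dom, 1 panel a gene, with groups along the axis, LexA last, and a line at each group mean. ATPsyndelta is highest in Spt5 (31.5 to 39.9 CPM), ND-B14.5A and COX6B are lowest in Trl, and COX7AL2 is highest in dom (4.77 to 5.90 CPM).

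With no group as control, 14 of 81 members differed among the 10 groups, against 29.1% of all genes (edgeR F test on 9 coefficients, Benjamini-Hochberg adjustment). The 8 with the smallest p were ND-B14.5A, ATPsynE, COX7AL2, ND-30, ND-ACP, COX6B, ND-SGDH and ATPsynB, with adjusted p between 0.0041 and 0.035. Group means of ND-B14.5A ran from 14.7 ± 3.2 CPM in Trl to 35.9 ± 2.8 in cnc (SD, n = 3 libraries each). ATPsynE ran from 4.30 ± 3.20 CPM in Trl to 22.0 ± 8.2 in Spt5, and ND-30 from 8.04 ± 3.80 in Trl to 20.5 ± 5.1 in Spt6.

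ND-ACP, the acyl carrier protein of complex I, also serves fatty acid synthesis in mitochondria. It averaged 8.39 ± 1.48 CPM in Trl and 16.5 ± 6.1 in Spt5, where replicate 2 held 23.0 CPM and replicate 3 10.9. ND-SGDH, an accessory subunit of complex I, averaged 11.2 ± 2.3 CPM in Trl and 21.8 ± 3.8 in Spt6, and ATPsynB 14.4 ± 7.3 in Trl and 39.2 ± 13.4 in Spt5. In 7 of the 8 genes Trl had the lowest group mean; COX7AL2 was lowest in cnc and highest in dom. With the libraries above 120 reads outside features left out, 3 members differed among groups, against 16.8% of all genes, and without Trl replicate 2 or Spt5 replicate 1, 4 did, against 22.6% and 17.3% of all genes.

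Over libraries, subunits and paralogs moved apart with reads outside features. In the 10 libraries with the lowest ratio (55.4 to 78.5 reads per 100 gene counts) the subunit median was 0.23 to 0.58 and the paralog median -1.09 to 0.35, both relative to the mean of LexA. In the middle 10 (79.2 to 92.4) the subunit median was -0.01 to 0.24, and in the highest 10 (93.7 to 171.7) it was -0.82 to 0.19, with paralogs at -0.01 to 1.38. The summed level of the subunits had a median of 2053, 1651 and 1527 CPM in these sets, and paralogs made up 1.88% to 3.04%, 3.32% to 5.70% and 3.83% to 8.11% of the members' summed CPM. All 3 Trl libraries were in the highest set and all 3 LexA libraries in the middle one, while each other group had libraries in more than one set. In 9 of the 10 groups the library with the lowest ratio had a higher subunit median than the library with the highest ratio, LexA being the exception.

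**Figure D5:**
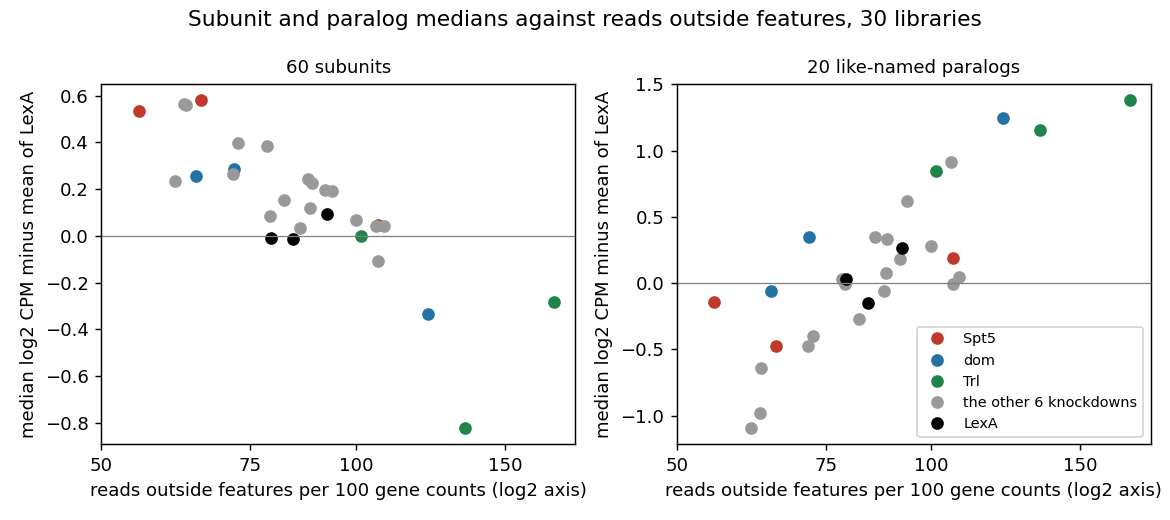
Median log2 CPM relative to LexA of subunits and of L paralogs in each of the 30 libraries, against reads outside annotated features per 100 gene counts (log axis), coloured by group. The subunit medians lie between 0.23 and 0.58 at the low end and reach -0.82 at the high end, while paralog medians run the other way, up to 1.38. Some paralogs passed the low-count filter mainly through libraries at the high end.

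Within groups, the change per doubling of that ratio was then fitted for every gene beside the group means, a test added after the pattern was seen. Of 60 subunits 34 were called lower with a doubling, against 19.2% of all genes, and none higher, against 26.9%; the median was -0.50, against 0.08 for all genes. By complex, 17 of 32 subunits were called lower in I, 3 of 4 in II, 4 of 6 in III, 3 of 8 in IV and 7 of 10 in V. Of 20 paralogs 6 were called higher, near the 26.9% of all genes, and none lower, against 19.2%, with a median of 1.12. Some paralogs passed the low-count filter mainly through libraries with a high ratio. UQCR-14L, for example, was highest in Trl replicates 1 and 2 (1.36 and 1.94 CPM), Top1 replicate 1 (1.44) and TH1 replicate 2 (1.17), all in the highest 10. The paralog median is therefore partly set by the filter. DESeq2 size factors left 22 subunits lower, against 10.7% of all genes, and 6 paralogs higher, near the 30.3% of all genes. The medians were then -0.33 and 1.30, with an all-gene median of 0.25. Over all genes the calls were then 4510 higher and 1591 lower, against 4012 higher and 2854 lower with the scaling used throughout.

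ATPsyngamma, the rotor shaft of ATP synthase, changed by -1.06 log2 units per doubling (SE 0.15, adjusted p = 2.0e-05, edgeR). In Trl it had 17.0, 18.6 and 38.8 CPM, and in dom 24.1, 52.4 and 44.6 CPM, against 35.2, 43.8 and 31.0 CPM in LexA, so that the 3 libraries above 120 held less than any LexA library and the other Trl and dom libraries did not. SdhA was at -0.99, ND-75, the largest core subunit of complex I, at -0.96, ND-39 of the same complex at -0.998, and UQCR-C1 at -0.90. SdhCL, a paralog of a membrane anchor of complex II, changed by 3.28 log2 units per doubling (SE 0.56), and had 4.21, 8.57 and 3.22 CPM in Trl, against 2.17, 0.531 and 3.16 CPM in LexA. The lowest Trl library lay only just above the highest LexA library. ATPsynbetaL and ND-49L were called higher as well, at 2.63 and 2.78.

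Marker genes moved with the same ratio. Per doubling, 5 of 6 markers of other neurons, 6 of 6 of glia, 4 of 4 of inner photoreceptors and 3 of 5 of fat body were called lower, 1 muscle marker was called higher and 1 lower, and 0 of 8 of outer photoreceptors were called. Of 10 testis markers 9 were called higher and fzo lower, with a median of 2.19 over all 10. Some of the 9 were at 0 in a library of the lowest 10. Such markers may have passed the low-count filter mainly through libraries with a high ratio. dj, for example, had medians of 0.326, 0.757 and 1.90 CPM in the lowest, middle and highest 10. The testis count and median may thus be partly set by the filter. Over all genes 26.9% were called higher and 19.2% lower. Summed testis markers were 42.3 to 73.5 CPM in the 10 libraries with the lowest ratio and 57.7 to 80.5 CPM in the 10 with the highest. Of these sums fzo alone had medians of 52.8 and 46.5 CPM. Each of the other 9 markers had medians of at most 1.66 and 6.86 CPM in the same sets. The part of any of these in the values of the subunits and paralogs was not tested.

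Genes of neighbouring pathways gave a setting for these values. A further 11 nuclear genes of oxidative phosphorylation have other symbols, such as levy and blw, the alpha subunit of ATP synthase. None of them was called in Spt5, dom or Trl, against 16.5%, 10.4% and 2.55% of all genes. Their medians were 0.57 in Spt5, 0.15 in dom and -0.41 in Trl. Per doubling of reads outside features 7 of them were called lower, against 19.2% of all genes. Cyt-c1L, a paralog of cytochrome c1, was called higher, against 26.9%. Of 15 assembly factors with a row, 2 were called higher in Spt5, against 11.0% of all genes: Coa7 at 0.87 and bsf, an RNA-binding protein, at 0.68. Another 1 was called lower, against 5.42%. This was Nubpl, known in human cells for the assembly of iron-sulfur clusters of complex I, at -1.14 in Spt5 and also called lower in Trl, at -0.95; it had 123.0, 138.5 and 237.3 CPM in Spt5 and 205.5, 135.6 and 227.5 CPM in Trl, against 307.6, 438.8 and 355.4 CPM in LexA. Neither knockdown overlapped LexA for Nubpl. In Trl the call of Nubpl was lost without Trl replicate 1 or 2 or any LexA library, with adjusted p up to 0.30, with the libraries above 120 reads outside features left out and with the covariate (0.22).

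The calls in Spt5 among these and the following lists rested on few libraries. Of the 15 list genes called in Spt5, all 15 lost the call without Spt5 replicate 1 (adjusted p 0.050 to 0.23), where 1.58% of all genes were called, and with only the Spt5 and LexA libraries in the fit (0.12 to 0.18). Without Spt5 replicate 2, 13 lost it, and without LexA replicates 1, 2 and 3 in turn 7, 10 and 8 did. The covariate ended the calls of Coa7 (0.068), bsf (0.058) and PolrMT (0.058), and the replicate number as a block that of bsf (0.057).

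Of 20 citric acid cycle genes, 5 were called higher in Spt5, against 11.0% of all genes, none in dom and none in Trl, with medians of 0.60 in Spt5, 0.22 in dom and -0.29 in Trl. Mdh2, mitochondrial malate dehydrogenase, had 223.7, 210.6 and 78.9 CPM in Spt5, against 64.3, 63.8 and 73.2 CPM in LexA (log2 difference 1.35, SE 0.31, adjusted p = 0.0050, edgeR). Idh, an isocitrate dehydrogenase, was at 1.18, ScsbetaA and Scsalpha1, subunits of succinyl-CoA synthetase, at 0.90 and 0.80, and Idh3b at 0.61. Spt5 replicate 3 was again the lowest of its group in Mdh2 and Idh; without it 12 of the 20 were called higher, against 14.9% of all genes, and without Spt5 replicate 1 none was.

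Mitochondrially encoded transcripts stood mostly above LexA in Spt5, dom and Trl, with 12, 12 and 11 of the 12 that passed the filter above 0. Of these, 3 were called higher in Spt5, 2 in dom and none in Trl, against 11.0%, 4.37% and 0.631% of all genes. Their medians were 0.80 in Spt5, 0.92 in dom and 0.60 in Trl. mt:ND2, a core subunit of complex I, had 20.2, 17.6 and 14.3 CPM in Spt5 and 17.0, 16.7 and 17.3 CPM in dom, against 6.86, 3.01 and 4.54 CPM in LexA, with no overlap of either knockdown with LexA. Its log2 fold change was 1.85 (SE 0.43, adjusted p = 0.0053, edgeR) in Spt5 and 1.82 (SE 0.43, adjusted p = 0.0064) in dom. mt:ND6 was called in both at levels of at most 9.89 CPM, and mt:ND1 in Spt5 at 1.53. In dom, mt:ND2 was not called without LexA replicate 2 (adjusted p 0.064), nor mt:ND6 without dom replicate 2 or LexA replicate 1 or 2 (up to 0.13). Per doubling of reads outside features 1 of the 12, mt:CoII, was called lower, against 19.2% of all genes. Both comparisons share the LexA libraries.

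Carriers and regulators were called in few cases. Among 16 carriers and porin genes, those called included colt, a carnitine carrier, and Mpcp2, a phosphate carrier, both higher in Spt5, and MCU, the calcium uniporter, higher in dom. None was called in Trl. Of 18 regulators of mitochondrial genes 2 were called higher in Spt5, against 11.0% of all genes called higher. In dom 2 regulators were called higher and 1 lower, against 10.4% of all genes called in either direction. No regulator was called in Trl, against 2.55% of all genes. The same shares of all genes apply to the carriers. Ets97D, the fly orthologue of the alpha subunit of NRF2/GABP, had 31.6, 46.1 and 40.7 CPM in dom, against 17.2, 20.2 and 18.0 CPM in LexA (log2 difference 1.10, SE 0.29, adjusted p = 0.015, edgeR), and 9.49, 7.31 and 15.2 CPM in Spt5, all below LexA but not called (-0.79, adjusted p = 0.069). Ets97D was called lower in Spt5 with the replicate block (0.041), the covariate (0.032), DESeq2 (0.030), DESeq2 size factors, the mean of the other 8 knockdowns as reference (0.037) and without Spt5 replicate 3 (0.0090). Spt5 against dom was at -1.89 for Ets97D. ewg, the orthologue of NRF1, fell in dom, with 91.8, 128.5 and 140.7 CPM in dom, against 198.9, 243.9 and 187.0 CPM in LexA (-0.80, SE 0.21, adjusted p = 0.013). foxo, a transcription factor of insulin signalling, was called higher in Spt5 at 1.22 and in dom at 1.02, and PolrMT, the mitochondrial RNA polymerase, in Spt5 at 0.67. In dom, Ets97D was not called without LexA replicate 1 (adjusted p 0.063), ewg without dom replicate 1 or 2 or LexA replicate 2 (up to 0.11), nor foxo and MCU without dom replicate 2 or 3 or LexA replicate 1 or 2 (up to 0.20).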

How the data were processed

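The deposited files hold raw counts per gene, 1 file per library, made by the authors with Trimmomatic 0.39, HISAT2 and HTSeq on the build BDGP6, per the submitters' processing notes. The counted feature, strand setting and annotation release are not given in the sources used here. Symbols and positions come from an Ensembl annotation of BDGP6, and 17710 of 17807 rows had a symbol. Rows of transgenes and the counter's summary rows, which took 51.8% to 74.5% of a library's reads, entered neither library sizes nor tests. Reads outside features are the no-feature row per 100 gene counts.

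Counts were tested with edgeR 4.0.16 (R 4.3.3) by the two-sided quasi-likelihood test, with TMM scaling, a filter by expression (minimum count 10, minimum total 15), all 30 libraries in 1 fit and 20 residual degrees of freedom. P-values were adjusted by Benjamini-Hochberg over 14888 genes and called under 0.05. Standard errors (SE) were log2 fold changes over the root of F. CPM were computed here on the TMM scale, and logged with a prior count of 2. Counting precision covers sampling of reads only, as no molecular identifiers are given.

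Groups and replicate numbers came from titles, since the genotype labels of 6 groups change name from replicate to replicate. The titles call replicates biological without naming flies or cultures. Of 135 same-numbered pairs 58 correlated over 0.1 (range -0.62 to 0.673). All 3 pairs did so in 2 of 45 pairs of groups, dom with Cdk12 and Taf1 with Spt6, and in 0 of the 11 compared, so no block was used.

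Members, lists and tests were chosen with earlier results of these data known. Named with values are members called in a comparison with LexA or of Spt5 with dom or Cdk12, the highest member of each complex per kb in LexA, the 8 smallest p among groups, and the 3 highest and 3 lowest fold changes in Spt5 and dom at an average log2 CPM of at least 3. ND-13B and, for the change per doubling, ATPsyngamma, ND-75, ND-39, SdhCL, ATPsynbetaL and ND-49L fall outside that rule and were chosen after their values were seen. Alternatives were DESeq2 1.42.0, its size factors, no filter, only the groups compared, a replicate block, a covariate, another reference and each library left out. Model scripts were tested on simulated data. Promoter sequence was not analysed here. A called gene of the wider pathway lists is not reported here.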

Additional observations from a re-analysis of the deposited data

Results flagged for a closer look

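Spt5 and dom differed from each other in 3 members when set against each other directly (edgeR's quasi-likelihood test, Benjamini-Hochberg adjustment), which is a test of the difference between their effects. COX7AL2 differed by -2.14 on the log2 scale (Spt5 minus dom, adjusted p = 0.013), with every Spt5 library below every dom library. UQCR-Q differed by 0.94 (adjusted p = 0.017) and ND-B12 by 0.78 (adjusted p = 0.032), with every Spt5 library above every dom library in both genes. Of all genes tested 8.19% were called in this comparison.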

How the results depend on the processing

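In Spt5 against LexA 1 member was called, and alternatives gave 2 with DESeq2 size factors, a replicate block or the covariate of reads outside features, 7 against the mean of the other 8 knockdowns, 0 with only the groups compared and 3 with DESeq2. In dom the count was 0, and it was 1 without the libraries over 120 reads outside features, 2 with the covariate or the other reference, 4 with only the groups compared and 1 with DESeq2. In Trl it was 2 (2.55%), 1 without a filter (ND-B14.5A, 0.823%) and 1 with the covariate (ND-15, 0.437%). It was 4 with the replicate block (5.10%) or DESeq2 (5.62%), and 39 against the other reference (31.3%). Without the libraries over 120, 1 Trl library remained, and no Trl count is given here. Top1 gave 0 (0.430%), and 1 with only the groups compared (1.92%) or DESeq2 (1.10%). For cnc it was 0 (0.289%), and 1 against the other reference (0.356%). Spt5 against dom gave 3 (8.19%), and 5 with DESeq2 size factors (9.71%) or no filter (7.55%). It gave 1 with only the groups compared (2.82%) and 6 with DESeq2 (11.4%). Spt5 against Cdk12 gave 0 (6.74%), and 1 with the replicate block (7.85%) and 3 with DESeq2 (10.2%). Among the 10 groups 14 members differed (29.1%), and 29 with DESeq2 (41.1%). Leaving out 1 library at a time gave 0 to 18 in Spt5 (1.58% to 24.2%) and 0 to 10 in Trl (0.219% to 7.70%). It gave 0 to 9 in Spt5 against dom (4.03% to 18.5%) and 0 to 13 in Spt5 against Cdk12 (0.0649% to 19.3%). Among the groups it gave 4 to 31 (17.3% to 36.7%). In TH1, Cdk12, Taf1 and Spt6 no alternative called a member, where at most 2.67% of all genes were called (Taf1, other reference). The causes were not tested.

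Signs were followed across the alternatives for the 6 called values and for the 12 highest and lowest fold changes named in Spt5 and dom, and none changed. The 6 calls were kept 45 times and lost 35 times over the alternatives, and the 12 values not called were called 11 times and stayed uncalled 151 times. The replicate block called UQCR-11 lower in Spt5 (-0.79, adjusted p = 0.031, edgeR) and kept the 6 calls of members; among list genes in Spt5 it ended the call of bsf (0.057) and called Ets97D lower (0.041), and in Trl it called mt:ND2 higher (0.049). The test among groups and the change per doubling had no version with only the groups compared or another reference. Leaving out libraries over 120 and the change per doubling itself were added after the data were seen. SE of subunit fold changes had medians near 0.27 log2 units in every comparison with LexA, and 6 members were too rare to test. Changes as large as 0.99 in Spt5 (ATPsynE) were not called, so the lack of a call does not show the lack of a change.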
